A study of Zea mays with 18 samples.

Results

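The genes described here match, by description, proteins with which plants perceive strigolactones (SLs) and karrikin-like signals, or relatives of these proteins. They are called perception genes below, and their function in maize roots was not tested. They were taken as every annotated maize gene whose deposited description names a strigolactone esterase or DAD2/DWARF14 hydrolase, KAI2, DWARF 3/MAX2, DWARF 53 or SMAX1. This rule, which uses descriptions and no measured value, found 23 genes among 55661 features of the expression table. RNA was sequenced from whole root systems of 2 genotypes after 4 weeks in vermiculite. WT was the inbred line B73, and *zmccd8* carried a Ds transposon insertion in *ZmCCD8*, a carotenoid cleavage dioxygenase gene needed for SL synthesis, in the same background (*zmccd8::Ds*). Control plants (CT) received complete Hoagland solution. For nitrogen deficiency (0N) the KNO3 at 1 mM was replaced by KCl, and for water stress (WS) the solution was given only at transplanting with no later irrigation. Each of the 6 groups had 3 libraries, each made from pooled plants, so the spread between libraries is that between pools, and a single insertion allele represents SL deficiency.

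SLs are carotenoid-derived hormones that roots make, use and release, and nutrient shortage is known to raise their synthesis. In rice and Arabidopsis, the hydrolase D14 binds and cleaves SL, and then recruits the F-box protein D3/MAX2 of an SCF ubiquitin ligase. The complex marks the repressor D53, or its SMXL relatives, for degradation, which releases genes held down by these repressors through TOPLESS-type corepressors. KAI2, a relative of D14, responds to karrikins from smoke and to an unknown internal ligand, and uses the same F-box protein with SMAX1 as its target. In rice, SL treatment also raises transcripts of *D53*, so the repressor gene is under feedback control in that species.

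Levels are FPKM, that is fragments scaled to gene length and to a size per library, so that genes of different length can be set side by side. That size was not the number of assigned reads (for WT CT replicate 3, 3.30e+07 against 33826090). Median-of-ratios factors, which scale libraries by their median ratio to a common reference, were 0.9999 to 1 for the deposited values. The values thus held such a scaling already. Differences are given in log2(FPKM + 1) with their standard error (SE), from limma fitted across all 27530 features that had at least 1 FPKM in at least 3 of 18 libraries. A gene was called where it passed both an adjusted p of 0.05 (Benjamini-Hochberg, over all these features) and a log2 difference of at least 1 in either direction. Of the 23 perception genes, 13 could be tested and 10 were below this minimum. The libraries held 30104083 to 43429912 assigned reads, as rebuilt from the FPKM values, and the median difference of all tested features lay between −0.02 and 0.00 in every comparison. The scaling of the values sets this median near 0, so it cannot show whether a shift common to all genes took place. *ZmCCD8* (Zm00001eb153000, chromosome 3, 202178668-202182189) still gave reads in the mutant, at 10.1 ± 5.72 FPKM in CT against 6.24 ± 2.33 in WT (SD, n = 3). It was called lower in *zmccd8* under 0N (log2 difference −1.95, adjusted p = 0.0235) and higher under WS (1.18, adjusted p = 0.0218). An insertion need not remove the transcript, so a level over the whole gene does not check the genotype labels.

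**Figure D1:**
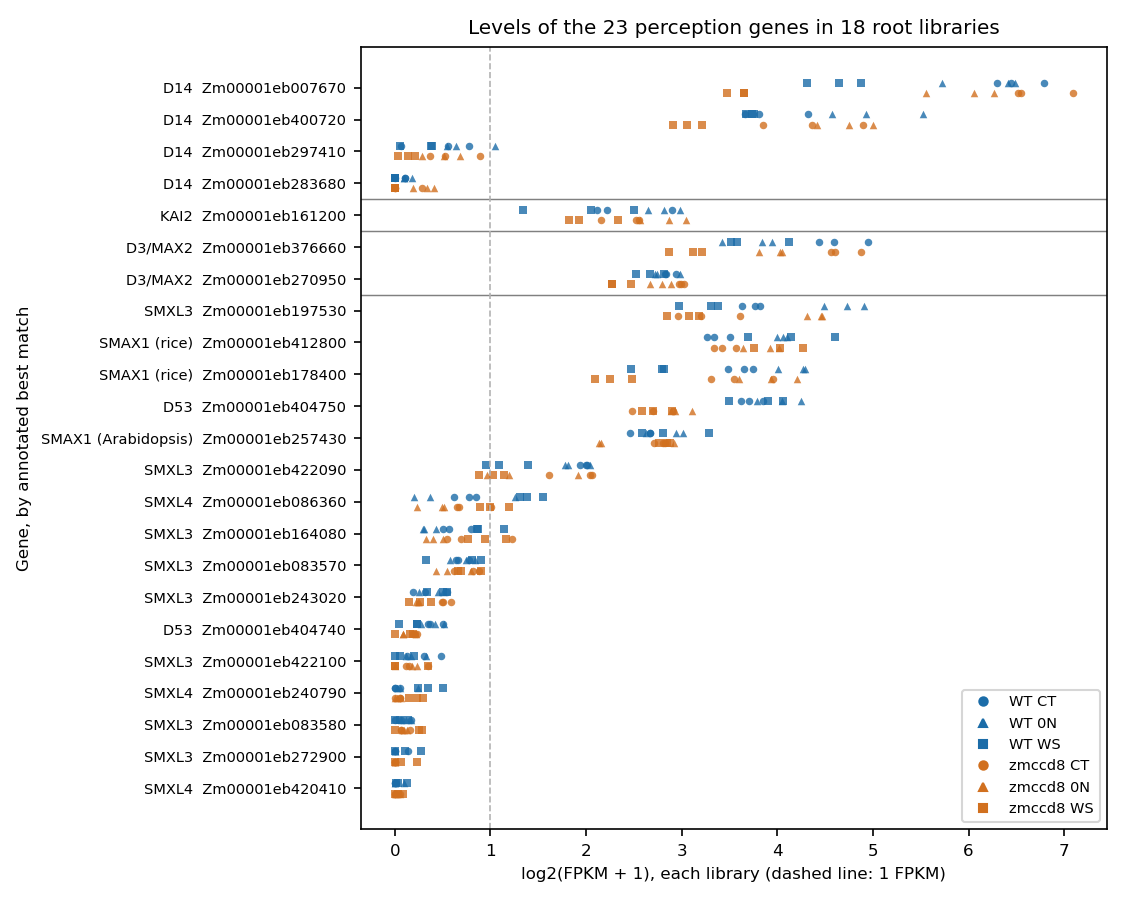
Level of each perception gene in each library, as log2(FPKM + 1) on the horizontal axis, with 1 row per gene grouped by role (from the top D14, KAI2, F-box and repressor genes). Blue marks are WT and orange *zmccd8*, circles CT, triangles 0N and squares WS, and the dashed line is at 1 FPKM. The D14 gene Zm00001eb007670 reaches the highest levels, and orange marks of the D53 gene Zm00001eb404750 sit left of its blue marks.

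The receptor and F-box steps each had 1 leading gene. Among receptors found by the rule, the D14 gene Zm00001eb007670 averaged 61.6 FPKM over the 18 libraries and Zm00001eb400720 averaged 18.8. The single gene that the rule found by the name KAI2, Zm00001eb161200, averaged 4.56. Genes whose descriptions name D14L, DLK2 or karrikin instead fell outside the rule and are counted with the other pathway genes. Of these receptor relatives, Zm00001eb020660 averaged 29.4 FPKM and Zm00001eb393500 averaged 7.53. The other D14-annotated genes, Zm00001eb297410 and Zm00001eb283680, averaged 0.395 and 0.0765 FPKM and were not tested. The leading D14 gene lies on chromosome 1 (22649192-22651959, minus strand), where RefSeq lists a gene with the synonym D14a. It gave 85.2% to 86.4% of the summed FPKM of the 4 D14 genes in the WT CT libraries.

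Between the F-box genes annotated as D3/MAX2, Zm00001eb376660 on chromosome 9 averaged 16.1 FPKM and Zm00001eb270950 on chromosome 6 averaged 5.78. The 16 repressor genes were more even at the top. The leading ones ranked close together, at 13.7 FPKM for Zm00001eb197530 (best match SMXL3), 13.5 for Zm00001eb412800 and 10.6 for Zm00001eb178400 (both best match rice SMAX1) and 9.86 for Zm00001eb404750 (best match rice D53). Zm00001eb257430, matching Arabidopsis SMAX1, averaged 5.74 FPKM, and 3 further SMXL genes that could be tested averaged 0.644 to 2.06. The other 8 repressor genes averaged 0.0212 to 0.637 FPKM. SMXL3 and SMXL4 act in phloem formation in Arabidopsis and are not targets of SL or karrikin signalling there.

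Some of these entries overlap each other. Zm00001eb404740, the other D53-annotated gene, lies on the opposite strand and shares 1721 bases with Zm00001eb404750. Likewise, Zm00001eb422100 shares 1315 bases with Zm00001eb422090, and Zm00001eb083580 shares 1275 with Zm00001eb083570. The opposite-strand entries averaged 0.0775 to 0.187 FPKM and none was tested. The libraries were strand-specific, but the strand setting used in counting is not given in the sources used here, so reads of such partners may not be fully separated. No gene was at 0 in all 18 libraries, and a library with no read allows up to 3 reads.

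The repressor gene Zm00001eb404750 (*D53*, chromosome 10, 129963-134779, plus strand, with a RefSeq gene of the synonym D53 at this position) was lower in *zmccd8* in all 3 conditions. In CT, the WT libraries had 11.3, 13.5 and 12.1 FPKM and the *zmccd8* libraries 5.51, 6.50 and 4.59. Under 0N the values were 17.9, 15.6 and 12.8 in WT against 6.62, 7.60 and 6.42, and under WS they were 14.01, 15.7 and 10.3 against 6.46, 5.52 and 5.01. Every one of the 9 WT libraries (10.3 to 17.9 FPKM) lay above every one of the 9 *zmccd8* libraries (4.59 to 7.60 FPKM). The mean level in WT was 2.22 times that in *zmccd8* in CT, 2.25 times under 0N and 2.36 times under WS.

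In CT, 1 of the 13 tested perception genes was called between genotypes, and it was *D53*, against 0.835% of all tested features (0.4% called lower). Its log2 difference was −1.03 ± 0.163 (SE, limma adjusted p = 0.0416). Under 0N, again *D53* was the 1 perception gene called, at −1.05 ± 0.158 (adjusted p = 0.0279), where 1.57% of features were called (0.89% lower). Under WS, 2 of 13 were called, both lower, against 0.901% of features (0.414% lower), *D53* at −1.09 ± 0.178 (adjusted p = 0.0438) and the leading D14 gene described below.

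These adjusted p-values lie close to the threshold. Leaving out any 1 of the 6 CT libraries ended the CT call, with adjusted p from 0.0555 to 0.178 and log2 differences from −1.14 to −0.92. Under 0N, the call held without WT replicate 3 or *zmccd8* replicate 3 and was lost without any of the other 4 libraries (adjusted p from 0.0443 to 0.143). Under WS it held only without WT replicate 3, with adjusted p from 0.0273 to 0.185 over the 6 fits. The estimate stayed between −1.26 and −0.92 over these 18 fits.

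A fit of all 18 libraries that averages the genotype difference over the 3 conditions, chosen after the data were seen and using the same libraries, gave −1.06 ± 0.0954 for *D53* (95% interval −1.26 to −0.86, adjusted p = 1.13e-06). It was the 1 of 13 perception genes called there, with 1.27% of all features called (0.665% lower) and 1.04% having 9 WT and 9 *zmccd8* libraries that did not overlap. Neither treatment gave a called difference for *D53*. The 0N difference was 0.30 in WT and 0.28 in *zmccd8*, and the WS difference was 0.09 and 0.03 (adjusted p from 0.225 to 0.896). The genotype by treatment interaction was −0.02 for 0N (95% interval −0.51 to 0.46) and −0.06 for WS (−0.59 to 0.46).

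The overlapping entry Zm00001eb404740 had 0.276 to 0.414 FPKM in WT CT and 0.141 to 0.173 in *zmccd8* CT. The ratio of *D53* to this entry was 27.4 in the lowest library, and the entry had no reads in 1 *zmccd8* WS library. Of all annotated genes tested, the 3 whose log2(FPKM + 1) followed *D53* most closely over the 18 libraries were Zm00001eb147350 (Pearson r = 0.947), Zm00001eb154780 (0.945) and Zm00001eb153410 (0.944). These were looked up because *D53* had been called, outside the naming rule. All 3 lie on chromosome 3, at 20.0, 5.86 and 1.53 Mb from *ZmCCD8*, whereas *D53* lies on chromosome 10. The second is annotated as a cold-responsive protein kinase and the others have no description.

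**Figure D2:**
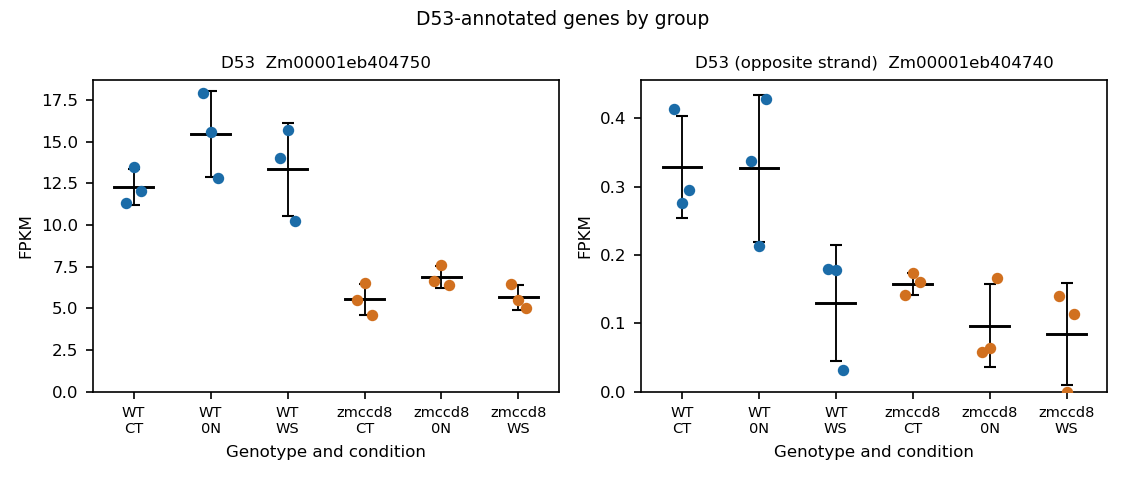
FPKM of the D53 gene Zm00001eb404750 (left) and of the overlapping opposite-strand entry Zm00001eb404740 (right) in the 6 groups. Points are libraries, lines means and bars SD (n = 3), blue WT and orange *zmccd8*. On the left all *zmccd8* libraries lie at 7.60 FPKM or below and all WT libraries at 10.3 or above, and the scale on the right ends below 0.5 FPKM.

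The leading D14 receptor gene was low under WS in both genotypes. This gene, Zm00001eb007670, had 77.8, 109 and 86.1 FPKM in WT CT and 18.8, 28.3 and 24.1 under WS. In *zmccd8* it had 92.8, 136 and 90.4 FPKM in CT and 10.2, 11.6 and 11.6 under WS. In neither genotype did CT and WS libraries overlap, and each WT WS library lay above each *zmccd8* WS library.

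In WT the gene fell by 1.90 (SE 0.191, adjusted p = 0.00078) and by 3.13 in *zmccd8* (SE 0.169, adjusted p = 4.92e-05). The mean FPKM in CT was 3.84 times that under WS in WT, and 9.58 times in *zmccd8*. Under WS the level was lower in *zmccd8* than in WT (log2 difference −1.02 ± 0.158, adjusted p = 0.035), while in CT and 0N the genotypes were not called apart (0.21 and −0.25). The WS genotype call held in 1 of 6 fits with a library left out, the fit without WT replicate 1 (adjusted p from 0.0345 to 0.14 over the 6). The interaction, that is the difference between the changes of the genotypes under WS, was −1.23 ± 0.268 and was not called (unadjusted p = 0.000627, adjusted p = 0.236).

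The second D14 gene, Zm00001eb400720 (chromosome 9, 154190652-154192059), behaved otherwise. It had 11.7, 18.9 and 12.97 FPKM in WT CT, 29.5, 22.8 and 44.9 under 0N and 12.5, 11.7 and 12.3 under WS. In *zmccd8* the values were 19.6, 28.8 and 13.4 in CT, 20.4, 25.9 and 31.1 under 0N and 8.30, 7.29 and 6.51 under WS. The WS libraries of *zmccd8* lay below all others of this gene, while those of WT lay within the WT CT range.

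It fell by 1.31 under WS in *zmccd8* (SE 0.258, adjusted p = 0.00806). In WT the WS difference was −0.21 ± 0.185 and not called, and the interaction of −1.11 ± 0.333 was not called either (unadjusted p = 0.00609, adjusted p = 0.433). Under 0N in WT the difference was 1.08 ± 0.282 with adjusted p = 0.0625, just outside the threshold. With 1 variance estimate from all 18 libraries this adjusted p was 0.00995. The ratio of the second to the leading D14 gene rose in range from 0.1499-0.173 in WT CT to 0.334-0.532 under 0N and 0.415-0.666 under WS. In *zmccd8* the same ratio was 0.148-0.213, 0.395-0.444 and 0.563-0.818. The libraries of CT and of each treatment did not overlap in either genotype, for which an exact two-sided permutation test of 3 against 3 libraries gives p = 0.1, the smallest it allows. The leading gene gave 54.5% to 63.6% of the D14 FPKM in the *zmccd8* WS libraries, against 82.0% to 86.7% in CT.

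Of the receptor relatives outside the rule, named here outside the naming rule, Zm00001eb020660 fell under WS by 1.20 in *zmccd8* (SE 0.184, adjusted p = 0.00288). In WT its WS difference of −0.97 ± 0.133 passed the adjusted p (0.00247) and not the fold threshold. Zm00001eb393500 had WS differences of −0.10 in WT and −0.38 in *zmccd8*, neither called. The gene described as KAI2, Zm00001eb161200 on chromosome 3, was called in none of the 9 comparisons of limma. It ranged from 1.54 to 7.28 FPKM over the 18 libraries. Its differences were 0.00, 0.01 and 0.06 between genotypes in CT, 0N and WS, with 95% intervals of −0.59 to 0.59, −0.43 to 0.45 and −0.66 to 0.79. The differences were 0.41 and 0.42 for 0N, and −0.44 and −0.38 for WS, in WT and *zmccd8*, with adjusted p from 0.174 to 0.35.

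The F-box gene Zm00001eb376660, which in rice and Arabidopsis links both receptors to the ubiquitin ligase, had 23.2, 29.8 and 20.7 FPKM in WT CT. It had 13.3, 9.74 and 14.4 under 0N and 10.98, 10.5 and 16.4 under WS. In *zmccd8* the values were 23.3, 28.4 and 22.6 in CT, 12.99, 15.5 and 15.4 under 0N and 6.31, 7.69 and 8.27 under WS. In both genotypes every treated library lay below every CT library.

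It fell by 1.61 under WS in *zmccd8* (SE 0.143, adjusted p = 0.000325). The other 3 treatment differences passed the adjusted p but not the fold threshold, at −0.92 for 0N and −0.92 for WS in WT and −0.72 for 0N in *zmccd8* (adjusted p of 0.0394, 0.0152 and 0.0297). The interaction for WS was −0.69 ± 0.263 (adjusted p = 0.541). The other F-box gene, Zm00001eb270950, ranged only from 3.82 to 7.12 FPKM. Its differences were −0.05 and −0.21 for 0N and −0.20 and −0.66 for WS in WT and *zmccd8*, the last with adjusted p = 0.00837 and below the fold threshold. The ratio of Zm00001eb376660 to Zm00001eb270950 was 3.41-4.87 in WT CT, 1.72-2.39 under 0N and 2.05-2.72 under WS, and in *zmccd8* it was 3.29-3.99, 2.39-2.62 and 1.66-2.01. An exact permutation test gave p = 0.1 for each treatment against CT in each genotype.

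**Figure D3:**
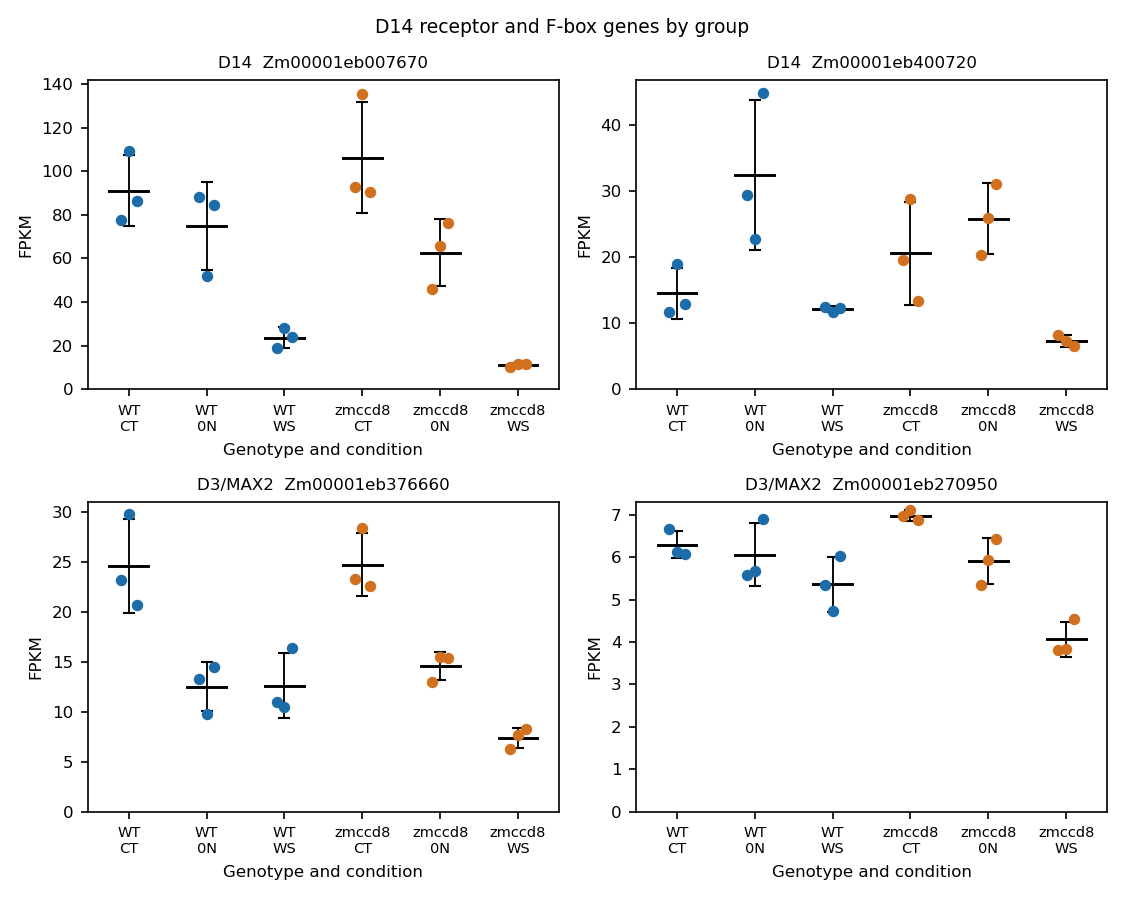
FPKM of the leading D14 genes (top) and of the D3/MAX2 F-box genes (bottom) in the 6 groups. Points are libraries, lines means and bars SD (n = 3), blue WT and orange *zmccd8*; each panel has its own scale from 0. Zm00001eb007670 drops to 10.2-11.6 FPKM in *zmccd8* WS, and Zm00001eb376660 is below its CT libraries in every treated group.

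The genes matching rice SMAX1, the karrikin-side repressor, parted under WS. Zm00001eb178400 (chromosome 4) had 10.2, 12.4 and 11.5 FPKM in WT CT and 4.54, 6.06 and 5.96 under WS. In *zmccd8* it had 10.7, 14.5 and 8.88 in CT and 3.27, 3.77 and 4.59 under WS. All WS libraries of this gene lay below all CT libraries.

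It fell by 1.32 in *zmccd8* (SE 0.203, adjusted p = 0.00288). In WT its difference of −0.93 ± 0.156 passed the adjusted p (0.00511) and not the fold threshold. For Zm00001eb412800 (chromosome 10) the WS difference had the opposite sign, 0.78 ± 0.234 in WT and 0.57 ± 0.155 in *zmccd8* (adjusted p of 0.0394 and 0.0263, both below the fold threshold). It had 9.37 ± 0.881 FPKM in WT CT and 17.3 ± 5.74 under WS, and 9.90 ± 0.870 and 15.4 ± 2.85 in *zmccd8* (SD, n = 3). The ratio of Zm00001eb412800 to Zm00001eb178400 was 0.735-1.01 in WT CT and 2.002-3.85 under WS, and 0.670-1.03 and 2.73-5.58 in *zmccd8* (exact permutation p = 0.1 in each). Under 0N the ratio was 0.811-1.07 in WT and 0.871-1.03 in *zmccd8*, overlapping CT. The sequences of these genes were not compared, and how reads that fit both would be assigned is not given in the sources used here.

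Among the SMXL3-annotated repressors, Zm00001eb197530 (chromosome 4) was the 1 perception gene called under 0N in *zmccd8*, of 13 tested, where 7.37% of features were called (1.74% higher). It had 8.24, 11.2 and 6.80 FPKM in *zmccd8* CT and 18.8, 21.2 and 20.9 under 0N. In WT it had 12.7, 13.2 and 11.4 in CT and 28.9, 21.4 and 25.6 under 0N. The 0N libraries of both genotypes lay above all CT libraries.

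The gene rose by 1.15 in *zmccd8* (SE 0.185, adjusted p = 0.0231). In WT the difference was 0.96 ± 0.138 (adjusted p = 0.0155), under the fold threshold, and the interaction was 0.19 ± 0.235 (adjusted p = 0.692). The *zmccd8* call was kept in 2 of 6 fits with a library left out, those without CT replicate 2 or 0N replicate 3 (adjusted p from 0.0179 to 0.0942). Under WS its values were 8.87, 9.42 and 6.87 FPKM in WT and 8.08, 7.41 and 6.21 in *zmccd8*.

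**Figure D4:**
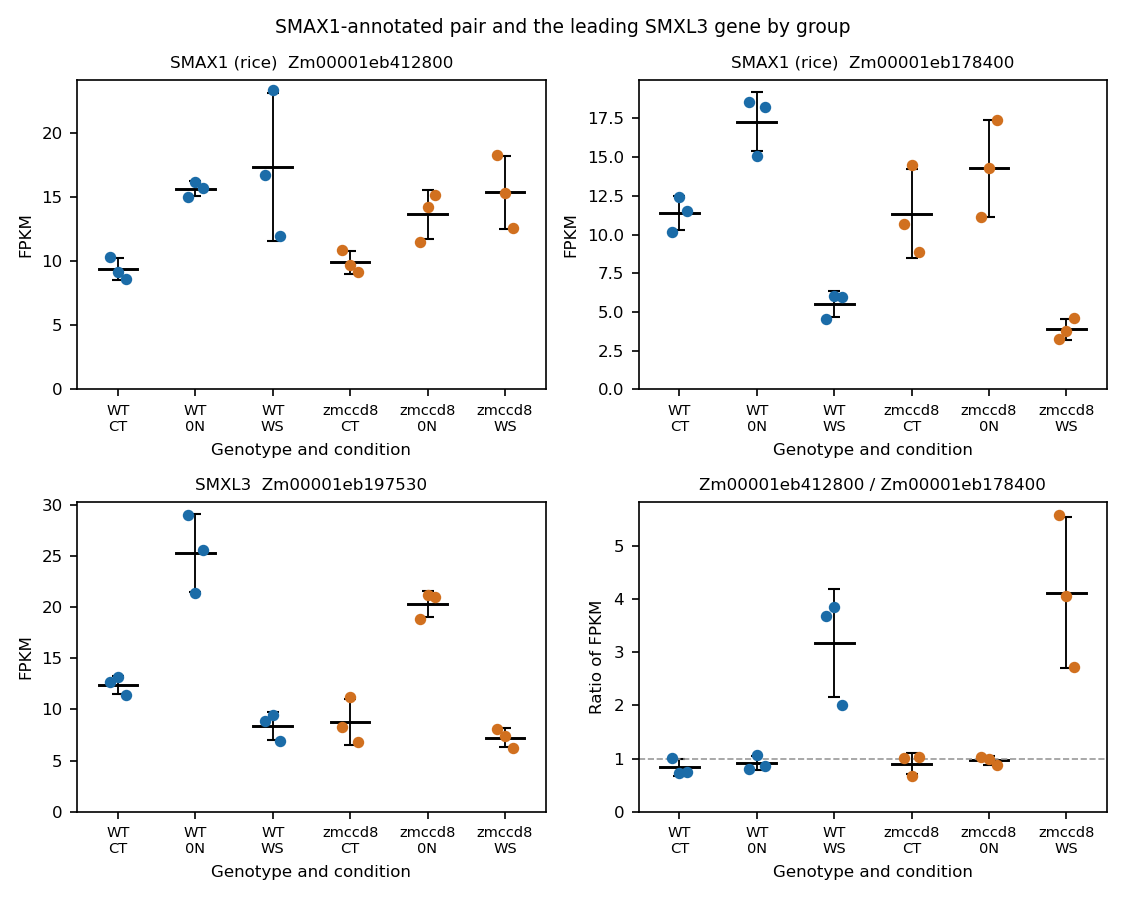
FPKM of the SMAX1-annotated genes Zm00001eb412800 and Zm00001eb178400 (top) and of the SMXL3 gene Zm00001eb197530 (lower left), and the ratio of the SMAX1 genes in each library (lower right, dashed line at 1). Points are libraries, lines means and bars SD (n = 3), blue WT and orange *zmccd8*. The ratio is at 2.002 or above in all WS libraries and at most 1.07 in the others.

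In WT, 0 of 13 perception genes were called for 0N by limma (6 at an unadjusted p under 0.05, and 2 by limma voom on the rebuilt reads), where 4.76% of features were called. For WS, 1 of 13 was called in WT, lower, against 17.8% of features (10.4% lower). In *zmccd8*, 4 of 13 were called for WS against 16.6%, all of them lower, where 10.3% of features were called lower. With the fold threshold set aside, 3 of 13 passed the adjusted p for 0N in WT and 2 of 13 in *zmccd8*, where 8.95% and 16.4% of features passed. Likewise, 7 of 13 passed the adjusted p for WS in WT and 7 of 13 in *zmccd8*, where 37.8% and 36.7% of all features passed. Genes whose 3 libraries of a group did not overlap the other 3 numbered 6 of 13 for 0N in WT (37.3% of features), 8 of 13 in *zmccd8* (44.7%), 9 of 13 for WS in WT (53.3%) and 7 of 13 in *zmccd8* (51.4%). Between genotypes they were 4 of 13 in CT (12.1%), 2 of 13 under 0N (32.4%) and 6 of 13 under WS (20%). The median WS difference of the 13 genes was −0.21 in WT and −0.38 in *zmccd8*, and that of all features was −0.01 and 0.00. Both treatments of a genotype were compared with the same CT libraries. No perception gene was called for an interaction (0 at unadjusted p under 0.05 for 0N and 4 for WS, and 0 by limma voom), where 0% and 0.0218% of features were called.

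The low-level repressor Zm00001eb422090 (SMXL3, 0.845 to 3.18 FPKM) had WS differences of −0.83 in WT and −0.89 in *zmccd8* (adjusted p of 0.00886 and 0.00876). Because 1 is added to each FPKM, such values understate the change of genes near 1 FPKM, and its mean FPKM in CT was 2.39 and 2.71 times that under WS. Zm00001eb086360 (SMXL4, 0.147 to 1.93 FPKM) had a WS difference of 0.67 in WT (adjusted p = 0.0108) and 0.25 in *zmccd8*. This gene met the filter only through WS libraries, which favours such a rise. It is among the genes counted above for WS in WT on the adjusted p and on libraries that did not overlap. Zm00001eb257430 (SMAX1, 3.40 to 8.76 FPKM) and Zm00001eb164080 (SMXL3, 0.224 to 1.34 FPKM) passed neither threshold in any comparison.

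Summed levels of tissue markers also moved with WS. A list of 45 genes was taken by descriptions that name the Casparian strip membrane protein family, of which 7 have such a protein as best match and 35 a CASP-like protein, a wider group that is not particular to the endodermis. The 7, whose relatives in Arabidopsis build the Casparian strip of the endodermis, were looked at apart after the data were seen. Their summed FPKM was 107 to 191 in WT CT and 34.6 to 54.8 under WS, and 115 to 152 and 16.8 to 42.9 in *zmccd8*, and 6 of the 7 were called lower under WS in each genotype. The summed FPKM of all 45 was 558 to 799 in WT CT and 273 to 284 under WS, and 659 to 707 and 234 to 285 in *zmccd8*. Of the 34 that could be tested, 12 were called lower under WS in each genotype, against 10.4% of all features in WT and 10.3% in *zmccd8*, with 3 higher in WT and 2 in *zmccd8*, and 6 of the 45 were at 0 in all libraries. A list of 16 leaf photosynthesis enzyme genes, which includes forms of phosphoenolpyruvate carboxylase that roots also use, summed to 252 to 329 FPKM in WT CT and 369 to 420 under WS, and to 292 to 386 and 418 to 475 in *zmccd8*. The single carboxylase gene Zm00001eb238670 ranged from 67.9 to 273 FPKM. Of the 9 genes of this list that could be tested, 1 was called higher and 2 lower under WS in WT. In *zmccd8*, 1 was called higher and 1 lower. Of all features, 17.8% were called in WT and 16.6% in *zmccd8*. The Rubisco small subunit genes of the list reached at most 5.50 FPKM, and 3 of the 16 were at 0 throughout. The part of these shifts in the fall of D14, F-box and SMAX1 genes was not tested, and in whole roots fewer cells of a type and less RNA per cell cannot be told apart. Between genotypes, where *D53* differed, the sums of the 45 genes overlapped in CT and WS and were 586 to 631 in WT and 435 to 509 in *zmccd8* under 0N. Those of the 7 genes overlapped in all 3 conditions, with 72.8 to 102 in WT and 35.5 to 87.8 in *zmccd8* under 0N.

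**Figure D5:**
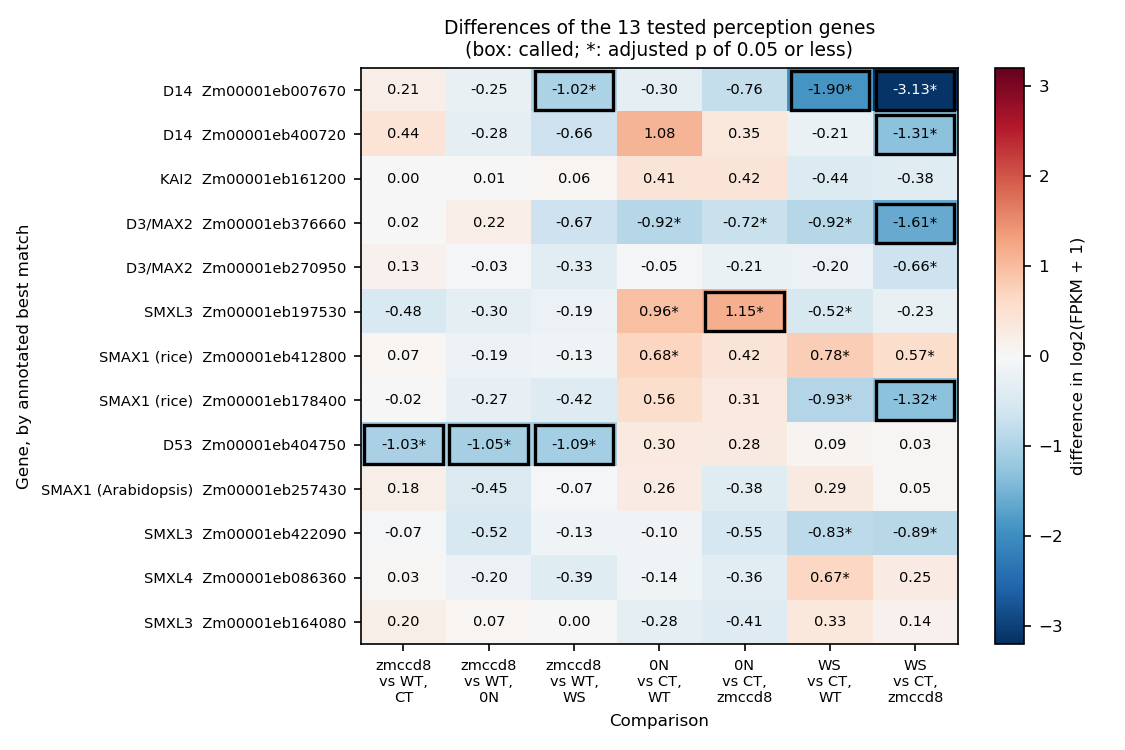
Difference in log2(FPKM + 1) of the 13 tested perception genes (rows, by best match) in 7 comparisons (columns), from −3.2 (blue) to 3.2 (red). Boxes mark called differences and asterisks an adjusted p of 0.05 or less. The D53 row is boxed in the 3 genotype columns only, and 4 rows are boxed for WS in *zmccd8*.

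Ranked over the 6 groups, most neighbours were within each other's spread. For the leading D14 gene the order of means was *zmccd8* CT, WT CT, WT 0N, *zmccd8* 0N, WT WS and *zmccd8* WS, and only the last 2 steps separated libraries without overlap. For *D53* the order was WT 0N, WT WS, WT CT, *zmccd8* 0N, *zmccd8* WS and *zmccd8* CT, and only the step from WT CT to *zmccd8* 0N was free of overlap. For Zm00001eb376660 the order began with CT in *zmccd8* and WT and ended with *zmccd8* WS.

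The genes most alike to the leading member of each role were found by Pearson correlation over the 18 libraries among 23874 annotated features, as a description, since the points share libraries and treatments. For the D14 gene Zm00001eb007670 they were Zm00001eb257510, a trehalose-phosphate synthase (r = 0.987), Zm00001eb433870, annotated as stem-specific protein TSJT1 (0.981), and Zm00001eb428020, OXIDATIVE STRESS 3 (0.981). For the F-box gene Zm00001eb376660 they were Zm00001eb135430 with no description (0.963), Zm00001eb118010, annotated as the transcription factor NIGTH1 (0.960), and Zm00001eb350120, a CCCH zinc finger protein (0.959). For the repressor Zm00001eb197530 they were Zm00001eb314240, a GTP diphosphokinase (0.964), Zm00001eb396690, a CASP-like protein (0.961), and Zm00001eb075200, a metal-nicotianamine transporter (0.959). Within the perception genes, the D14 gene Zm00001eb400720 and the SMAX1 gene Zm00001eb178400 were the most alike pair (r = 0.905).

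Of 74 other pathway genes, 41 could be tested. Between genotypes 0 were called in CT by limma (5 at an unadjusted p under 0.05, 0 by limma voom), 4 were called lower in *zmccd8* under 0N and 1, *ZmCCD8*, was called higher under WS. Of all features, 0.835%, 1.57% and 0.901% were called in CT, 0N and WS. Of these 4, 3 belonged to synthesis, namely *ZmCCD8*, the CYP711A gene Zm00001eb123090 (MAX1 in Arabidopsis, −1.35 ± 0.14, adjusted p = 0.00623) and the D27 gene Zm00001eb114610, a carotene isomerase in rice (−1.21 ± 0.195, adjusted p = 0.0354). The remaining one was Zm00001eb300620 on chromosome 7, whose best match CXE15 is an esterase that breaks down SL in Arabidopsis. It had 6.97 ± 2.04 FPKM in WT 0N and 0.0859 ± 0.149 in *zmccd8* 0N (log2 difference −2.85 ± 0.239, adjusted p = 0.0024). Among *zmccd8* libraries this gene reached 1 FPKM only in CT replicate 2 (1.38). It thus met the filter through WT, where it is high, and a filter met this way favours such a difference. In CT it had 3.69, 15.8 and 3.41 FPKM in WT and 0.632, 1.38 and 0.806 in *zmccd8* (log2 difference −1.88 ± 0.504, adjusted p = 0.296, not called). Under WS the means were 0.976 ± 0.249 and 0.0362 ± 0.0627 FPKM, and the difference of −0.93 ± 0.141 passed the adjusted p (0.0322) and not the fold threshold. Because 1 is added to each FPKM, this value understates the change at such low levels. Of 8 alternative limma fits, 2 called it, with adjusted p from 0.0224 to 0.33 over the 8. In all 3 conditions every WT library of this gene lay above every *zmccd8* library, and the 0N interaction was not called (adjusted p = 0.416).

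For WS, 12 of these 41 genes were called in WT (4 higher, 8 lower) and 16 in *zmccd8* (5 higher, 11 lower). Of all features, 17.8% were called in WT (10.4% lower) and 16.6% in *zmccd8* (10.3% lower). The CXE15-annotated esterases moved both ways. Zm00001eb300670 fell by 2.56 in WT and 2.91 in *zmccd8*, and Zm00001eb300640 fell by 1.52 and 1.80, whereas Zm00001eb123910 rose by 2.59 and 2.43 (adjusted p of 0.00249 or less in each). In synthesis, the CYP711A genes Zm00001eb384100 and Zm00001eb123090 and the D27 gene Zm00001eb114700 were called lower under WS in both genotypes, with log2 differences from −2.30 to −1.46. Other synthesis genes went the other way. Zm00001eb074640, whose best match is the rice carotenoid cleavage dioxygenase CCD7, rose by 1.33 in WT and 1.71 in *zmccd8* (adjusted p of 0.00188 and 0.00173), and was named after its values were seen. *ZmCCD8* rose by 1.22 in *zmccd8* (adjusted p = 0.0319), where the call held in 2 of 6 fits with a library left out, and its WT difference was 0.59 (adjusted p = 0.0973). Of the TOPLESS-type corepressors, with which D53 acts in rice, Zm00001eb415530 rose by 1.15 and 1.16 (26.1 ± 3.41 FPKM in WT CT and 58.5 ± 0.224 under WS).

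Partners of the F-box protein in the ligase, 12 tested of 25 SKP1-like and cullin genes, gave no call in any of 9 comparisons by limma. Of all features, 17.8% were called for WS in WT and 16.6% in *zmccd8*. On the adjusted p alone, 4 of the 12 passed for WS in WT and 3 of 12 in *zmccd8*, where 37.8% and 36.7% of features passed. For 0N in *zmccd8*, 1 of 12 passed it, where 16.4% of features did. At an unadjusted p under 0.05 there were 0 to 7 of 12 per comparison, and limma voom called 1 lower for WS in each genotype. For 0N, 4 of the 41 genes were called in WT, all of them synthesis genes and higher, where 4.76% of features were called. In *zmccd8*, where 7.37% of features were called, 4 of the 41 were called, 3 CXE15-annotated esterases that were lower and the corepressor gene Zm00001eb127680, which rose by 1.05.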

How the data were processed

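Poly(A) RNA was sequenced from 18 root libraries by the authors on strand-specific (dUTP) libraries. Per the labels and the study's methods, the deposited FPKM values were made by the authors from reads trimmed with fastp, aligned to Zm-B73-REFERENCE-NAM-5.0 with HISAT2 (2.0.5) and counted with featureCounts. FPKM times gene length gave whole reads for every value (tolerance 0.01), from which depth was rebuilt. The members and lists were chosen with earlier results of these data known. Values were analysed as log2(FPKM + 1) with limma 3.58.1 in R 4.3.3, with a mean-variance trend and two-sided tests, each comparison on its own libraries, and checked on simulated data. Genes named are those called in a comparison, the highest of each role, their 3 most correlated genes and, from other pathway lists, those called between genotypes and up to 3 per list called for a treatment in both genotypes. RefSeq genes of the same assembly were matched by position for 18 of 23 members. Deviations of same-numbered libraries correlated positively in *zmccd8* WS against CT (r = 0.135, 0.224 and 0.253). They also did so in *zmccd8* 0N against CT (0.143, 0.390 and 0.096) and between genotypes under WS (0.072, 0.108 and 0.288). A block on the number changed no call in these comparisons. Between genotypes in CT the correlations were 0.000545, 0.144 and 0.159, and there the block ended the *D53* call. Counting precision is limited by the 30104083 to 43429912 reads per library. Alternatives changed the pseudocount, the filter, the scaling, the variance model, the libraries and the tool, and 1 was added after the data were seen. The scaling alternative, median of ratios, had factors of 0.9999 to 1, so it repeated the main fit and tested no other scaling. Sequences of the members were not used here.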

Additional observations from a re-analysis of the deposited data

How the results depend on the processing

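No called difference of a perception gene changed sign under any alternative, and of 1056 values with every library kept, 1034 stayed on their side of the threshold, 9 lost a call and 13 gained one. Among those that stayed, 117 came from the median-of-ratios scaling, which repeats the main fit and so could not move a call. Without the filter, 0 members were called between genotypes in CT, 0N or WS and 0 for 0N in *zmccd8*. All features of the 55661 with a read in any library were then adjusted together. With annotated genes only, 0 were called in CT and 1 under WS (*D53* at adjusted p = 0.0595 and 0.0573). With the replicate block, 0 were called between genotypes in CT and 0 under 0N, where *D53* had adjusted p of 0.0966 and 0.13. Same-numbered libraries of these groups correlated at 0.000545 to 0.159 in CT and at −0.388 to −0.103 under 0N. With 3 libraries a group, such values cannot tell whether the numbers pair the samples. The block changed no other call. For 0N in WT, the count went from 0 to 1 with a pseudocount of 0.1, with a mean of at least 5 FPKM or with all 18 libraries in 1 fit, and to 2 with limma voom. For WS in WT it went from 1 to 4 with a pseudocount of 0.1 and with limma voom, and these 4 include Zm00001eb086360, which met the filter only through WS libraries. On the adjusted p alone, the counts were 3 for 0N in WT, 2 for 0N in *zmccd8*, and 7 for WS in each genotype. With a library left out, the count was 0 in all 6 fits in CT between genotypes, 0 to 1 under 0N and WS, 0 to 1 for 0N in each genotype, 1 to 3 for WS in WT, 4 to 5 for WS in *zmccd8* and 0 for both interactions. With 3 libraries a group, an exact permutation test cannot go below p = 0.1, and the 10 members below the filter were not tested.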
